A study of Drosophila melanogaster with 2 samples.

Results

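Small nucleolar RNAs (snoRNAs) guide the chemical modification of other RNAs, and the chromatin of their genes was read here in peaks of CG5953, a Drosophila melanogaster protein that the labels name only by its gene number. Every gene of biotype snoRNA on the chromosome arms was taken from the Ensembl annotation of assembly BDGP6, which gave 269 of the 17947 genes used. The measurement was chromatin immunoprecipitation with sequencing (ChIP-seq) of transgenic flies with a fusion of CG5953 to enhanced green fluorescent protein (eGFP), and the antibody was raised against the tag. Whole embryos aged 0 to 24 h were used, so all embryonic tissues and stages are averaged, and the sex was not collected. There was 1 group of 2 libraries, biological replicates 1 and 2, and no library of another genotype or treatment enters the comparisons. The labels do not say which promoter drove the fusion.

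Most snoRNAs belong to 2 families. Box C/D snoRNAs carry the C and D boxes and guide methylation of the ribose, whereas box H/ACA snoRNAs end near an ACA triplet and guide the conversion of uridine to pseudouridine. Their main target is ribosomal RNA, and the scaRNAs, found in Cajal bodies, act on spliceosomal RNAs. In Drosophila, as in vertebrates, most snoRNAs have no promoter of their own: they lie in introns of a host gene and are trimmed from the spliced-out intron. Some hosts encode ribosomal proteins, and others, the Uhg genes, have spliced RNAs with no known protein.

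By their names, 106 of the 269 snoRNAs were guides of ribosomal RNA pseudouridylation and 75 guides of its methylation. A further 21 were orphans with no assigned target, 16 were scaRNAs, 3 were copies of U3, which acts in cleavage of the ribosomal RNA precursor, and 48 were placed in none of these by the naming rule used, among them 2 named as methylation guides of U6. Their median length was 134 bp (range 46 to 316). A protein-coding or noncoding gene on the same strand contained 247 of them, which gave 92 host genes, and 243 of the 247 were intronic. The hosts were 28 ribosomal protein genes with 71 snoRNAs, 54 other protein-coding genes with 121, 7 Uhg genes with 48, and 3 other noncoding genes with 7. The remaining 22 snoRNAs had no host.

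The sequences that follow are those of the strongest peaks near a host start, of host starts with and without a peak, and of snoRNAs close to a bound start. All were read from the Release 6 genome, whose coordinates are those of dm6, on the strand of the gene. The first pair are the whole peaks with the highest signal near a host start, at CG1142 (chr3R:7473880-7474021) and Stt3A (chrX:21054259-21054405), both on the minus strand. The summit of the second was nearer to the start of the gene bves than to that of Stt3A. None of the motifs searched in this pair of peaks fell in either. The TCT tract, which is defined only close to a start, was not searched there.
CG1142 peak: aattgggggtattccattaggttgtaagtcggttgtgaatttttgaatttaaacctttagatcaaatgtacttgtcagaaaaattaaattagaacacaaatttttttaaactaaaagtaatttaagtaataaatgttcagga
Stt3A peak: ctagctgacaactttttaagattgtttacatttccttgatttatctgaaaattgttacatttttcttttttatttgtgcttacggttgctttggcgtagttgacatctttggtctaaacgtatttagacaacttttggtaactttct
Next are 150 bases, from 100 before to 49 after the annotated start, of 3 ribosomal protein hosts with a peak: RpL14 (chr3L:8600906-8601055, plus strand), RpS12 (chr3L:13023252-13023401, plus strand) and RpL4 (chr3R:27922721-27922870, plus strand). Capitals mark the TCT tract at the start of RpL14 and RpL4, and the DNA replication-related element (DRE) in RpS12.
RpL14: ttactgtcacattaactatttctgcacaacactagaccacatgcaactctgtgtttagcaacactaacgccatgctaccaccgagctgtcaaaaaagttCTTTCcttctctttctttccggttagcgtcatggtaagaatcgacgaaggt
RpS12: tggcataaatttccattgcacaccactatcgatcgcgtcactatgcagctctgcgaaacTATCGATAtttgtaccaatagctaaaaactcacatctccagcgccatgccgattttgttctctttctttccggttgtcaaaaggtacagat
RpL4: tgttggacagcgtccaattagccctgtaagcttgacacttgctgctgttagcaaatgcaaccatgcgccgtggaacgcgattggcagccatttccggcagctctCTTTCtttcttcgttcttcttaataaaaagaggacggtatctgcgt
The same stretch is shown for 3 hosts with no peak, Arpc2 (chr2L:20416957-20417106, plus strand), Uhg2 (chr2L:9894954-9895103, minus strand) and Uhg8 (chr3L:20453193-20453342, plus strand). The capitals in Arpc2 are a TATA box read on the opposite strand.
Arpc2: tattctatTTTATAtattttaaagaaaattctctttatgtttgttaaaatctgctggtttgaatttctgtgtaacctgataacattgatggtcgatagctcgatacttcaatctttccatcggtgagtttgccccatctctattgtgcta
Uhg2: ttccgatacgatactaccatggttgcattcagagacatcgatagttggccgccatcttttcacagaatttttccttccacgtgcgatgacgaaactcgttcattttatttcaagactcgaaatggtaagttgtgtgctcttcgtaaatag
Uhg8: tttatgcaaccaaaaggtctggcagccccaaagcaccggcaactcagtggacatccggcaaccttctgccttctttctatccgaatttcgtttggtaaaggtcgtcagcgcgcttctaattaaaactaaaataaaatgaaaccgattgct
Last are 3 snoRNAs that lie close behind a bound host promoter: Or-aca2 inside RpS6 (chrX:7901062-7901203, minus strand), Psi18S-920 inside RpL10Ab (chr3L:11822984-11823124, plus strand) and Me28S-A774b inside RpS12 (chr3L:13023580-13023652, plus strand). Capitals mark the ACA triplet of the first pair, and the C box and D box of the third. The peak of RpS6 overlaps the first bases of Or-aca2, and the other pair lie outside the peaks.
snoRNA:Or-aca2: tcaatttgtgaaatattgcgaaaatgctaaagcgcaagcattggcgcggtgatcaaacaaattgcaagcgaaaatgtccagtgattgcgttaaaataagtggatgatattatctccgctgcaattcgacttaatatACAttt
snoRNA:Psi18S-920: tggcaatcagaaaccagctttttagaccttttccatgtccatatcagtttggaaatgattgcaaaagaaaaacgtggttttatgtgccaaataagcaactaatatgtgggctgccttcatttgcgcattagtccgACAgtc
snoRNA:Me28S-A774b: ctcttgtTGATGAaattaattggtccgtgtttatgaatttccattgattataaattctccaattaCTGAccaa

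A gene was called bound when a peak's summit was at most 500 bp from an annotated transcription start. The peaks were those of the conservative set, the deposited list of peaks whose ranks repeated between the 2 libraries. By this rule 9.73% of all genes were bound, with 11.3% of protein-coding genes and 4.26% of noncoding RNA genes. Each peak has a signal value whose unit the files do not state; the median over the conservative set was 83.0. Intervals on shares are exact Clopper-Pearson 95% intervals and cover counting only, since neighbouring genes can share a peak.

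Within 500 bp, peaks were less frequent at the starts of the snoRNAs than at the promoters of their hosts. Of the 269 snoRNA genes, 13 had a summit within 500 bp of their own start (4.83%, interval 2.60 to 8.12), against 9.73% of all genes. With a window of 1000 bp the order turned: 42 snoRNAs (15.6%) against 12.4% of all genes. The host promoter was bound for 84 of the 247 snoRNAs with a host (34.0%, interval 28.1 to 40.3). Counted once per host, 34 of 92 promoters were bound (37.0%, interval 27.1 to 47.7). In the libraries' own lists the share of hosts bound was 30.4% in replicate 1 and 32.6% in replicate 2, or 31.5% ± 1.54 (SD, n = 2). Protein-coding genes without a snoRNA had 7.94% and 7.18% in the same lists. The difference between hosts and other genes was not tested.

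**Figure D1:**
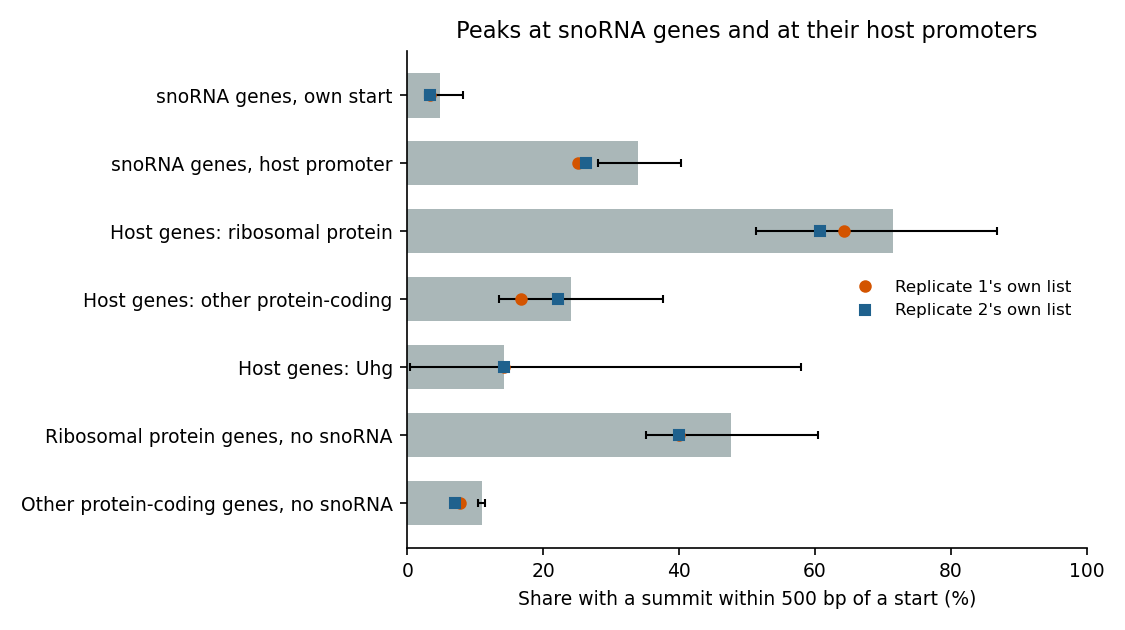
Share of genes with a summit within 500 bp of an annotated start, in percent, for snoRNA genes, host groups and genes without a snoRNA. Bars are the conservative set with exact 95% intervals, and the circle and square are the libraries' own lists; ribosomal protein hosts stand at 71.4% and snoRNA starts at 4.83%.

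Ribosomal protein genes accounted for most of the bound hosts. Their promoters were bound in 20 of 28 hosts (71.4%, interval 51.3 to 86.8), against 31 of the 65 ribosomal protein genes without a snoRNA (47.7%, interval 35.2 to 60.5). These intervals overlap, and the difference was not tested. Ribosomal protein genes were taken by symbol, here and below. The 65 therefore include genes such as RpL7-like, RpL22-like and RpL24-like, and paralogues of hosts such as RpS5b. No host has a name ending in -like, so the host and other sets may differ in more than holding a snoRNA. In the libraries' own lists the shares were 62.5% ± 2.53 for ribosomal protein hosts and 40.0% in each library for the other ribosomal protein genes (n = 2). The 54 other protein-coding hosts had 13 bound (24.1%, interval 13.5 to 37.6), against 10.9% of protein-coding genes that were neither host nor ribosomal protein gene. Protein-coding hosts together had 33 of 82 bound (40.2%), and noncoding hosts 1 of 10 (interval 0.253% to 44.5%). Over all protein-coding and all noncoding RNA genes the shares were 11.3% and 4.26%.

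In the conservative set, counting over snoRNAs gave the ribosomal protein group a higher share than counting over hosts. There the shares of the other protein-coding genes and Uhg genes were nearly equal. The host promoter was bound for 59 of the 71 snoRNAs in ribosomal protein genes (83.1%), 18 of 121 in other protein-coding genes (14.9%; 11 in replicate 1's own list and 17 in that of replicate 2), 7 of 48 in Uhg genes (14.6%) and 0 of 7 in the other noncoding genes. For the ribosomal protein group the libraries' own lists gave 44 of 71 (61.97%) and 41 of 71 (57.75%). These were below the shares over hosts in the same lists, 64.29% and 60.71%. The larger of the deposited joint lists gave 45 of the 71, 26 of the 121 and 7 of the 48. Of the 59 in the conservative set, 14 belong to RpS5a alone, whose peak was among the weakest. Without RpS5a, 70 of 233 snoRNAs had a bound host promoter. Hosts with 1 snoRNA were bound in 20 of 55 cases, hosts with 2 to 5 in 11 of 27, and hosts with over 5 in 3 of 10. The exact intervals of these shares overlap (23.8% to 50.4%, 22.4% to 61.2% and 6.67% to 65.2%).

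By the kind of guide, host promoters were bound in the conservative set for 39 pseudouridylation guides (38.6% of those with a host). Methylation guides had 19 of 72 (26.4%), scaRNAs 4 of 14 (28.6%) and orphans 11 of 15 (73.3%). The orphans share hosts: 4 of the 11 lie in RpL28 and 2 in Uhg4. Counted over hosts, orphans had 7 of 10 bound (interval 34.8 to 93.3), pseudouridylation guides 13 of 27 (48.15%) and methylation guides 12 of 32 (37.5%). Their intervals overlap. The guides of a class within 1 host are not separate observations. In the libraries' own lists, pseudouridylation guides had 26 of 101 bound in each (25.74%). Methylation guides had 18 of 72 in replicate 1 and 17 of 72 in replicate 2, so the gap was smaller there. RpS5a, bound in neither own list, holds 14 snoRNAs, all pseudouridylation guides. Over hosts, the own lists gave 12 and 13 of 27 for pseudouridylation guides, and 11 and 10 of 32 for methylation guides.

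The strongest peak at any host promoter was that of CG1142, which holds the scaRNA MeU5-C46, and its signal was 365.5, with matching signals of 178.2 in replicate 1 and 184.5 in replicate 2. Its summit lay 159 bp upstream of the start. At Stt3A, which encodes the catalytic subunit of an oligosaccharyltransferase, the signal was 253.8 (141.0 and 122.3), with the summit 386 bp upstream. That summit was nearer to the start of bves than to the start of Stt3A, so this peak cannot be assigned to the host. At Msp300, which encodes a giant nesprin of the nuclear envelope, the signal was 241.0 (133.3 and 108.5), with the summit 358 bp upstream of an annotated start. Msp300 has 5 annotated starts, and this one is internal, so the summit lies inside the gene. In replicate 1 these 3 hosts stood above all others, and in replicate 2 Uhg4 came between Stt3A and Msp300; none of the 3 encodes a ribosomal protein.

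Ribosomal protein hosts followed in a narrower range. RpL30, RpS12, RpL4 and RpL14 had signals of 178.8, 172.8, 171.9 and 171.3. In replicates 1 and 2 the signal was 81.8 and 87.5 at RpL30. At RpS12 it was 76.3 and 90.6. Summits lay 29, 26 and 43 bp upstream of the start at RpS12, RpL4 and RpL14, inside the stretches printed above. RpL30 has several annotated starts, and its summit lay 12 bp downstream of the nearest. RpS4 (145.9), RpL11 (140.3), RpL28 (131.5, with 5 snoRNAs), RpL3 (121.9) and RpS7 (119.7, with 7 snoRNAs) came next, followed by RpL22 (119.2), RpL17 (118.6), RpL27A (112.7), RpS16 (108.4) and RpL10Ab (101.0). Weaker ones were RpS29 (90.9), RpL7A (75.5), RpS5a (66.0), sta (57.6) and RpS6 (54.3). At RpS5a the replicates had 26.8 and 35.6, and at RpS6 31.7 and 27.1. The bound ribosomal protein hosts had a median signal of 118.9 (range 54.3 to 178.8), and the bound ribosomal protein genes without a snoRNA had 117.1 (range 57.8 to 319.7). Over all bound protein-coding genes the median was 94.3.

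The other bound protein-coding hosts included eEF1alpha1, the translation elongation factor that delivers aminoacyl-tRNA, at 132.5. Irbp, the Drosophila Ku70 of DNA end joining, had 114.8. Further ones were CG12316 (122.6), CG3902 (101.2), mask (93.5), the dystrophin gene Dys (83.0), the zinc finger transcription factor gene lola (78.6), gcl (70.5), which acts in germ cell formation, and CG43051 (57.8). The libraries were further apart at mask in ratio than at the others of this group named here, with 25.9 in replicate 1 and 67.2 in replicate 2. The summit at gcl was nearer to the start of the gene CG14767, so this peak cannot be assigned to the host.

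**Figure D2:**
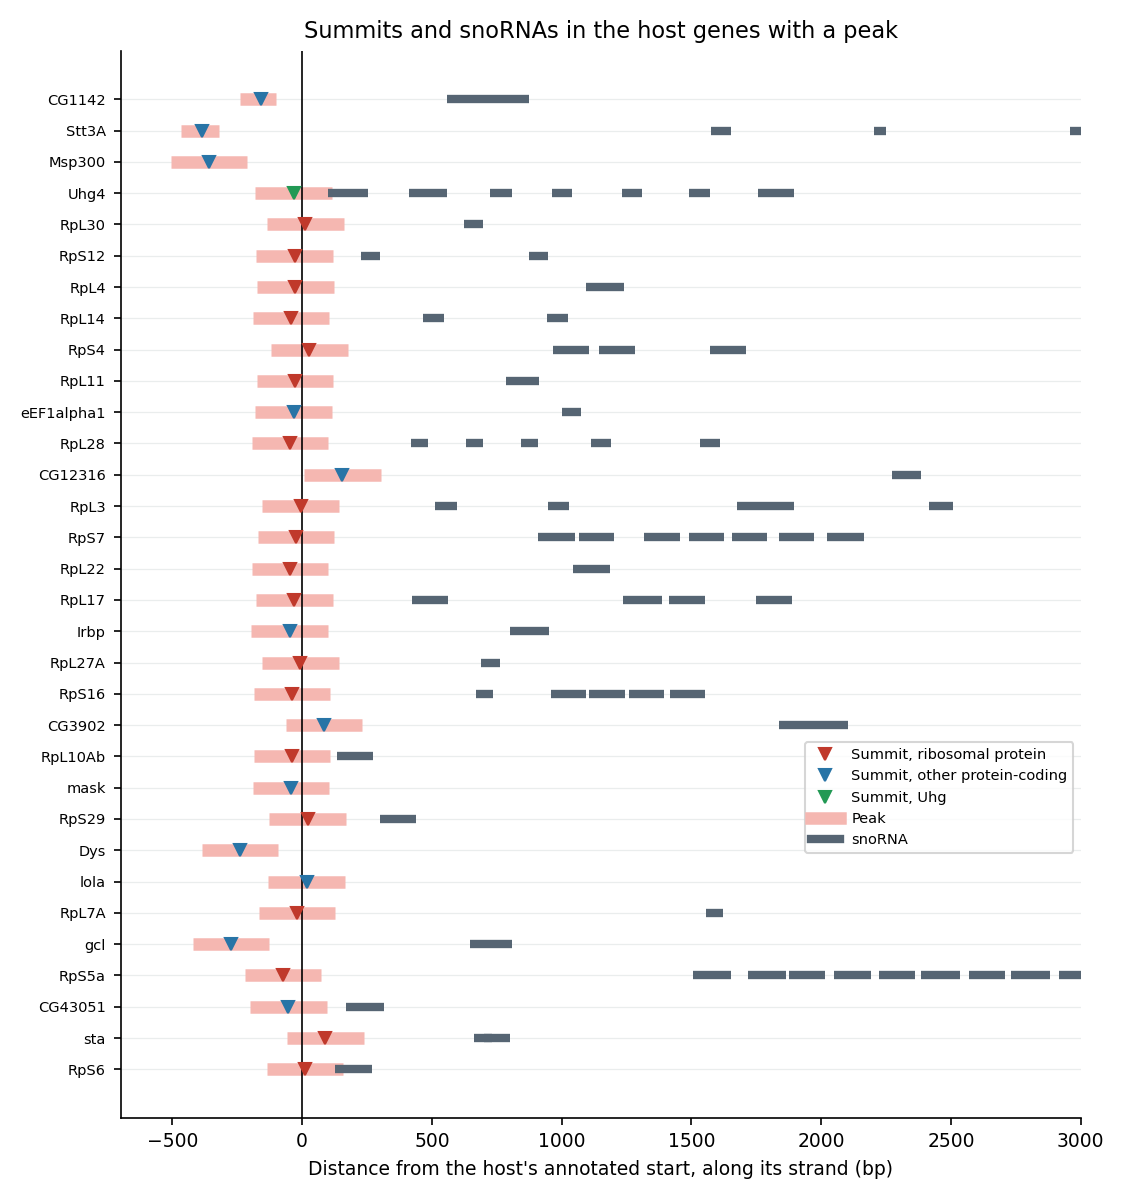
Position of the conservative peak (pink), its summit (triangle) and the snoRNAs (grey bars) along the strand of the bound hosts named in the text, in bp from the host start nearest to the summit, in order of signal. Summits cluster at or just upstream of the start, and only summits within 500 bp of a start enter. The snoRNAs lie downstream, which follows largely from a host being the gene that contains them. Those beyond the right edge are not drawn.

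Distances are given from the host start nearest to the summit, since 12 of the 34 bound hosts have several starts in the window. Summits at bound hosts lay at a median of 32.5 bp upstream. In 26 of the 34 hosts the summit was upstream, and in 28 it was within 100 bp of the start. All 20 ribosomal protein hosts had it within 100 bp, the farthest at 96 bp. Their median absolute distance was 28.5 bp, and that of bound ribosomal protein genes without a snoRNA was 27.0 bp. The summits of Stt3A and Msp300, at 386 and 358 bp, were the farthest of all. In 21 of the 34 hosts the window held the start of another gene, often a snoRNA or a divergent neighbour such as eIF1 at RpL28 and Nelf-E at RpL14. The nearest start was still that of the host in 31 of 34. The peak was in both libraries' own lists for 24 hosts, in 1 for 5, and in neither for 5: gcl, RpS5a, CG43051, sta and RpS6. RpS5a, sta and gcl were also missing from the larger of the deposited joint lists, here named the optimal set.

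Of the 7 Uhg genes 1 was bound (14.3%, interval 0.361 to 57.9), against 4.26% of noncoding RNA genes and 11.3% of protein-coding genes. The interval holds both of these shares, and the bound gene was Uhg4. Its signal was 187.7, the fourth highest of the hosts, with 71.3 in replicate 1 and 118.2 in replicate 2, and its summit lay 33 bp upstream of the start. Its 7 snoRNAs include the guide Psi28S-2949, whose first bases lie under the edge of that peak. At the 6 other Uhg genes the strongest peak in the ranked lists, which hold peaks down to very weak ones, had a signal of 24.1 to 43.8 and a score of 85 to 646. The thresholded lists begin at 830. In replicates 1 and 2 the ranked signal was 23.0 and 24.5 at Uhg5, 18.8 and 27.3 at Uhg8, 10.8 and 20.0 at Uhg2, 14.1 and 14.2 at Uhg7, and 13.6 and 13.8 at Uhg3. At Uhg1 it was 11.8 in replicate 1, with no ranked peak in replicate 2. The median over all protein-coding genes was 13.9 in replicate 1 and 15.2 in replicate 2. Uhg1 holds 16 snoRNAs and Uhg5 holds 11, so these are among the 5 hosts with most snoRNAs.

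Several of the largest hosts were also unbound, as were 58 of all 92 hosts. Of the 10 hosts with over 5 snoRNAs, 3 were bound (interval 6.67% to 65.2%). That interval holds both the 37.0% of all hosts and the 11.3% of protein-coding genes, and the difference from either was not tested. The 7 unbound hosts with over 5 snoRNAs held 81 of them. Arpc2, which encodes a subunit of the actin-nucleating Arp2/3 complex, holds 17 snoRNAs, more than any other host, and its ranked signal was 12.03 in replicate 1 and 23.8 in replicate 2. The chromatin remodeller gene dom holds 15 and had 13.7 and 24.8. The translation regulator gene kra holds 8 and had 33.5 and 35.4; in replicate 2 this ranked peak had a score of 888, yet it was not in that library's thresholded list. Hrb98DE, which encodes an RNA-binding protein of nascent transcripts, had 26.6 and 24.6, with a peak in the optimal set but not in the conservative set. For Nop60B, which both holds 7 snoRNAs and encodes the pseudouridine synthase that works with H/ACA snoRNAs, the ranked signal was 17.9 and 11.2.

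Among ribosomal protein hosts, 8 were unbound and they were of several kinds. RpL13A had a ranked peak with a signal of 149.0 and the top score of 1000, 73.9 in replicate 1 and 75.2 in replicate 2, within 1 bp of its start. It was in none of the thresholded lists, and the reason is not given in the sources used here. It was 1 of 82 ranked peaks on the arms that met the score of the conservative set without being in it. RpS20 had 56.6 in replicate 1 but 10.9 in replicate 2, and was bound in the optimal set and in replicate 1's own list. RpL36A had 17.2 and 43.8 and was bound in replicate 2's own list. RpS9 had 32.4 and 18.3 and was bound in replicate 1's own list. RpL15 had 5.89 in replicate 1 and no ranked peak in replicate 2, and its nearest conservative summit was 4388370 bp away. RpL5 and RpS3A had no ranked peak in either library, with nearest summits 392489 and 357613 bp away.

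**Figure D3:**
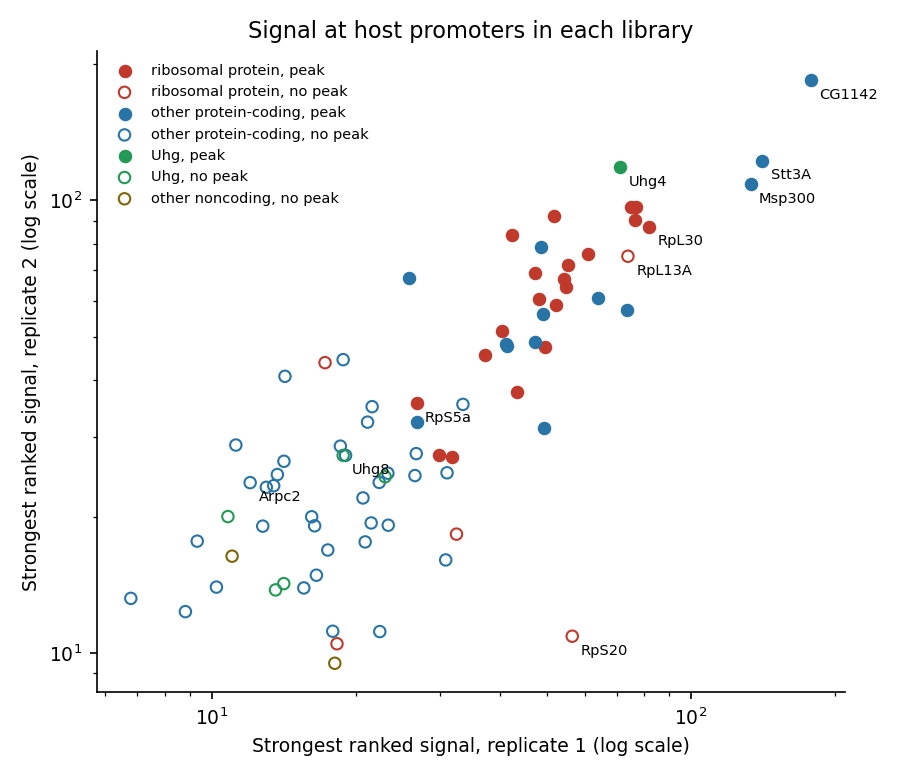
Signal of the strongest ranked peak within 500 bp of a start of each host, replicate 1 against replicate 2, on log axes without a stated unit. Filled symbols are hosts bound in the conservative set; they lie mostly at the upper right, where RpL13A (73.9 and 75.2) is an open symbol among them, and hosts with no ranked peak in a library are not drawn.

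The ranked signals of the 81 hosts with a peak in both libraries rose together (Spearman's rho 0.779, Pearson's r 0.809 on log2 values). This is across genes, which share the libraries and are not independent. Ribosomal protein hosts that were bound had a higher signal in replicate 2 in 16 of 20 cases, at a median ratio of 1.24. The other bound protein-coding hosts had 8 of 13, at 1.03. Over the 1565 bound protein-coding genes with a peak in both libraries the median ratio was 0.901, and 38.5% were higher in replicate 2. Whether the 2 libraries differ at these genes was not tested, as there is 1 library on each side.

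Without any threshold, the host groups kept this order. Each gene was placed by its strongest ranked signal among all protein-coding genes, genes with no ranked peak sharing the lowest rank. The median percentile of ribosomal protein hosts was 93.3 in replicate 1 and 95.8 in replicate 2, and that of ribosomal protein genes without a snoRNA was 84.3 and 90.1. Other protein-coding hosts had 71.1 and 77.8, and Uhg genes 51.0 and 67.3. The 6 unbound Uhg genes ranged from 39.2 to 78.4 in replicate 1 and from 10.8 to 83.4 in replicate 2.

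**Figure D4:**
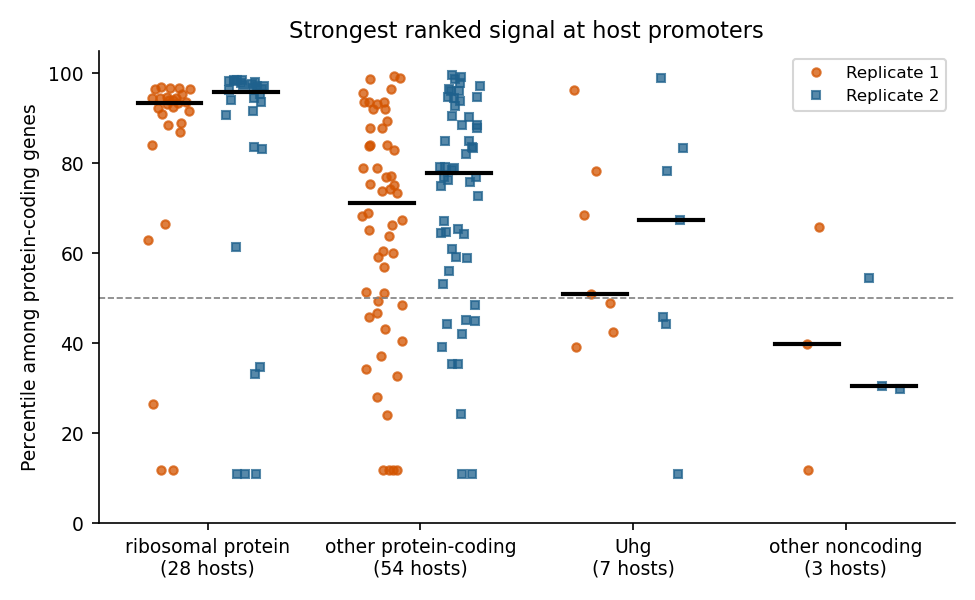
Percentile of the strongest ranked signal at each host promoter among all protein-coding genes, for replicate 1 (circles) and replicate 2 (squares), with black lines at the medians and a dashed line at 50. Ribosomal protein hosts sit near the top (medians 93.3 and 95.8), other protein-coding hosts spread over nearly the whole range, and Uhg genes centre at 51.0 and 67.3; points at the bottom have no ranked peak.

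Where a summit did lie near a snoRNA, it was usually the one at the host promoter. The nearest annotated start was the host's in 9 of the 13 cases. A summit close to a host start can lie within 500 bp only of snoRNAs near that start, so the next split follows largely from the window. Of the 33 hosted snoRNAs that begin within 500 bp of a host start, 9 had a summit by their own start, and all 9 lie in bound hosts. Of the 214 that lie farther away, 1 did. That snoRNA, abba-a in the gene tn, which encodes a TRIM-family ubiquitin ligase, had a peak of 82.4 at a distance of 412 bp, with 42.5 and 39.3 at the peaks that overlap it in replicates 1 and 2.

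A peak overlapped the body of 3 snoRNAs (1.12%, interval 0.231 to 3.22): Psi28S-2949 in Uhg4, Or-aca2 in RpS6 and Psi18S-176. The matching share was not computed for other stretches of such short length, so whether this is few or many was not tested. In Psi18S-176, a pseudouridylation guide of the small subunit RNA with no host, the summit lay inside the snoRNA, 14 bp downstream of its first base. This was the single such case, and the peak was weak: 57.5, with 32.4 in replicate 1 and 25.2 in replicate 2, and in neither library's own list nor in the optimal set. Of the 22 snoRNAs without a host, 3 had a summit within 500 bp of their start, Psi18S-176 among them. Or-ACA6 had a peak of 107.5 at 445 bp upstream (39.1 and 60.1), and the scaRNA MeU1:95C-A24 one of 65.9 (35.8 and 30.2), which lay 57 bp from the start of a U1 spliceosomal RNA gene. For 17 of the 22 the nearest summit was over 1000 bp away, among them the 3 U3 genes.

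Repeated sequence can hide peaks, so each region was cut into 32-base words and each word was looked up in the whole genome. Of the 269 snoRNAs, 202 consisted only of words found once, 44 had under 90% such words and 8 under 50%. Those 8 include the U3 pair at 54A, for which no word was unique, so a read of this length within them could not be placed, and the absence of a peak inside them says little. The windows around host starts were at least 93.2% unique for bound hosts and at least 94.4% for unbound ones. The windows of RpL5, RpS3A and RpL15 held unique words only.

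Promoter letters were counted, for bound and unbound genes alike, at the most upstream annotated start of each gene, in the 300 bases from 250 before to 49 after the start, on both strands except for the TCT tract, the initiator of many Drosophila ribosomal protein genes. The searched letters of no motif contain those of another, and a promoter could hold several motifs. The tract was searched as CTTTC or CTTTT on the gene's strand within 10 bases of the start. It was present in 10 of 34 bound hosts (29.4%), 8 of 58 unbound hosts (13.8%) and 5.37% of all protein-coding promoters. Split by kind of gene, it was in 9 of 20 bound and 3 of 8 unbound ribosomal protein hosts, in 26 of 65 ribosomal protein genes without a snoRNA, and in 3 of 54 other protein-coding hosts. Of the Uhg genes 3 of 7 had it: Uhg4, Uhg1 and Uhg5. In a gene with several starts the most upstream need not be the start with the peak. At the start nearest to the summit the tract was in 15 of 34 bound hosts (44.1%) and 14 of 20 bound ribosomal protein hosts. By that rule it was in 31 of 65 ribosomal protein genes without a snoRNA and in 8.52% of all bound protein-coding promoters. Unbound genes kept the most upstream start there, so that count does not treat the groups alike.

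DRE, the site TATCGATA of the factor DREF, was present in 8 of 34 bound and 10 of 58 unbound hosts (23.5% and 17.2%), against 9.36% of all protein-coding promoters. The core of Motif 1 (GGTCACAC) was in 7 of 34 and 4 of 58, against 7.69%, and the core of Motif 6 (GGTATTT) in 6 of 34 and 12 of 58, against 9.87%. Runs of GAGAGAG were in 2 of 34 and 0 of 58, against 5.86%. The E-box CAGCTG was in 4 of 34 and 4 of 58, against 17.6%. The TATA box (TATAAA) was in 16 of 34 and 26 of 58, against 45.8%, and in 6 of 7 Uhg genes, all but the bound Uhg4. These matches were counted anywhere in the 300 bases. In Uhg2 and Uhg8 the match began over 100 bases before the start, outside the stretches printed above. Over all bound protein-coding promoters, at the same most upstream start, DRE was in 12.1%, Motif 1 in 11.6% and Motif 6 in 11.4%. GAGAGAG was in 9.09% of them, CAGCTG in 25.1% and TATAAA in 44.6%. At the start nearest to the summit, DRE, Motif 1 and Motif 6 were each in 6 of the 34 bound hosts. By that rule GAGAGAG was in 4, CAGCTG in 5 and TATAAA in 15. A match is a run of letters and not a shown site, and no difference in motifs was tested.

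Genes of the proteins that join snoRNAs in their ribonucleoproteins were mostly unbound. Of 8 such genes, NHP2, which encodes an H/ACA core protein, had a peak of 143.3 (65.3 and 70.9) with its summit 205 bp upstream. The other 7 had none: Fib, the methyltransferase of C/D particles, their scaffolds Nop56 and nop5, their RNA-binding protein hoip, and the H/ACA proteins Nop60B, Nop10 and Gar1. Their ranked signals, where listed, were 14.8 to 23.6 in replicate 1 and 11.2 to 25.2 in replicate 2. Fib, nop5 and Nop60B are themselves hosts of snoRNAs. The share, 1 of 8 (12.5%, interval 0.316 to 52.7), is close to the 11.3% of protein-coding genes.

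Of 18 genes listed for ribosomal RNA processing, 5 were bound (27.8%, interval 9.70 to 53.5), and the 11.3% of protein-coding genes lies in that interval. The share was also 27.8% in replicate 1's own list but 16.7% in that of replicate 2. The highest signal was at eIF6, whose protein keeps the large subunit from joining too early, at 681.0 (312.0 and 362.5) with the summit 111 bp upstream. The gene l(3)72Dn had 149.9, CG12325 83.6, and Nopp140, a nucleolar chaperone of snoRNA particles, 78.2. The list also held Rrp1, at 82.2, which in spite of its name encodes a DNA repair endonuclease; without it 4 of 17 were bound. Leaving Rrp1 aside, the bound genes of this list were in replicate 1's own list in every case and in that of replicate 2 for eIF6 and l(3)72Dn.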

How the data were processed

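ChIP-seq of CG5953-eGFP was measured in 2 libraries, biological replicates 1 and 2 per the labels, from chromatin sonicated to 200 to 800 bp. The files used were deposited lists of peaks on dm6, ranked or thresholded by the irreproducible discovery rate (IDR), per the text files deposited beside them. The aligner, like the peak caller, was not given in the sources used here. The authors gave each peak a signal in a unit the files do not state, a score that ends at 1000, and in the ranked lists a deposited −log10 of the IDR. The thresholded lists begin at a score of 830. Peak lists hold no reads, so depth is unknown.

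Summits were placed on Ensembl BDGP6 (release 115), which shares dm6 coordinates, with Python 3.11.15, numpy 2.4.6, pandas 2.3.3 and scipy 1.17.1, and plots used matplotlib 3.10.9. Pseudogenes and transposable elements were not used. A few host genes are counted but not reported here by name. A host is the shortest gene on the same strand that contains the snoRNA. Named genes are every Uhg gene, the bound hosts, snoRNAs with a summit at their start and the hosts with most snoRNAs; other genes named for how they stood apart were chosen after their values were seen. The members, lists and motifs were chosen with earlier results of these data known. Of 20 processing genes listed, 18 were found, and Nop10 and Gar1 were matched through RefSeq synonyms. The start used for distances (nearest to the summit) and for motifs (most upstream) was chosen after seeing the data. The placing of summits was tested on simulated data. Alternatives were other windows, lists and rules.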

Additional observations from a re-analysis of the deposited data

How the results depend on the processing

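The counts of hosts, of protein-coding, noncoding and ribosomal protein hosts, and of snoRNAs with a bound host promoter stayed within 1.5 times of their value under all alternatives run; smaller groups moved more, such as the snoRNAs in other protein-coding hosts, from 18 to 11 in replicate 1's own list. The libraries' own lists gave 62 to 65 snoRNAs with a bound host promoter, 28 to 30 hosts, 27 to 29 protein-coding hosts, 17 to 18 ribosomal protein hosts and 1 noncoding host. The 13 snoRNAs with a summit by their own start depended on the rule. They numbered 5 with a window of 250 bp, 42 with 1000 bp (15.6%, then above the 12.4% of all genes), 8 with only the peaks above the median signal, 20 where any overlap of peak and window counted, and 3 where the summit was given only to its nearest start. Each library's own list gave 9. With peaks in both own lists, an alternative chosen after seeing the data like that of the most upstream start only, there were 7. In all, 64 alternative values stayed within 1.5 times and 6 did not. Peak lists without reads limit what can be said of genes with no peak.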
